A study of Mus musculus with 20 samples.

Results

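The CC chemokine ligands described here are 10 genes, Ccl2, Ccl7, Ccl12, Ccl3, Ccl4, Ccl5, Ccl6, Ccl9, Ccl17 and Ccl22, picked by name from the 23090 genes counted in each library. RNA-seq was made from granulocytic (gMDSC) and monocytic (mMDSC) myeloid-derived suppressor cells sorted from tumours of mice that had received CBPi or vehicle. CBPi is GNE-781 (CBPi-781 in the labels), a small molecule that blocks the acetyl-lysine binding bromodomains of CBP and EP300, both histone acetyltransferases. The 20 libraries form 4 groups of 5, which are CBPi gMDSC 6 to 10, vehicle gMDSC 1 to 5, CBPi mMDSC 6 to 10 and vehicle mMDSC 1 to 5. CBPi mice were gavaged with 25 mg/kg of the compound BID for 7 days, and vehicle mice with MCT alone, once tumours averaged 150 to 200 mm3. All mice were female SCID.beige animals of 6 to 8 weeks, a strain that lacks T cells, B cells and functional NK cells, so no group carried a T or B cell response to the tumour. Tumours grew under the skin from implanted cells of MDA.MB.231-X1.1, a subline of a human breast carcinoma line, or of CT26, a mouse colon carcinoma line. The labels do not give the tumour line of a library, so a difference between lines cannot be told apart from the other differences between libraries. Both populations were sorted as CD45+ CD11b+ Ly6C+ F4/80- cells, and Ly6G staining split them into gMDSC (Ly6G+) and mMDSC (Ly6G-).

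CC chemokines are small secreted proteins whose first pair of cysteines stand next to each other. They bind G protein-coupled receptors on leukocytes and direct their migration along a gradient. Most are inducible: inflammatory signals acting through NF-kB, AP-1 and interferon-regulatory factors switch their genes on, with CBP and EP300 among the coactivators recruited to such genes, and many of their mRNAs are short-lived. In tumours, ligands of the receptor CCR2 draw in monocytes, and ligands of other receptors such as CCR1 act on monocytes, macrophages, neutrophils and T cells. Tumour-infiltrating myeloid cells both make and respond to these proteins.

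In the RefSeq annotation of GRCm38, 8 of the 10 genes lie in clusters on chromosome 11. The first cluster holds Ccl2 (GeneID 20296, 82035577 to 82037452), Ccl7 (20306, 82045712 to 82047525) and Ccl12 (20293, 82101845 to 82103399), which encode monocyte chemoattractants that bind CCR2. The second holds Ccl5 (20304, 83525778 to 83530518), Ccl9 (20308, 83572917 to 83578636), Ccl6 (20305, 83587886 to 83593087), Ccl3 (20302, 83647843 to 83649378) and Ccl4 (20303, 83648624 to 83664683), which encode macrophage inflammatory proteins and RANTES. Ccl22 (20299, 94745684 to 94751388) and Ccl17 (20295, 94809380 to 94812038), which encode the ligands of CCR4, are neighbours on chromosome 8. Ccl12 had the same count as GeneID 102641905 in every library, so its reads cannot be separated from those of that second entry. The RefSeq spans of Ccl3 and Ccl4 overlap by 755 bases on opposite strands, but in the GENCODE annotation their exons share 0 bases.

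The RefSeq table of GRCm38.p6 held promoters for 6 of the 10 genes (Ccl12, Ccl9, Ccl6, Ccl3, Ccl17 and Ccl22). The 250 bases before the start are shown for 3 of them. Ccl3 and Ccl12 are the 2 members, of those that passed the count filter, whose CBPi and vehicle levels did not overlap in gMDSC, and Ccl9 had the largest log2 fold change between cell types in both treatments. All read 5′ to 3′ on the strand of the gene, and capitals mark the motifs searched for. Ccl3 is at chr11:83649379-83649628 (minus strand), Ccl12 at chr11:82101595-82101844 (plus strand) and Ccl9 at chr11:83578637-83578886 (minus strand).
Ccl3: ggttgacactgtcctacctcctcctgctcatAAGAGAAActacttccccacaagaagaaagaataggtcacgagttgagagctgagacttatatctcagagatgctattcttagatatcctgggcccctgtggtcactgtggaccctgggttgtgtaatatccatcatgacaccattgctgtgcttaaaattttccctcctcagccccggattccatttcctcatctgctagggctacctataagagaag
Ccl12: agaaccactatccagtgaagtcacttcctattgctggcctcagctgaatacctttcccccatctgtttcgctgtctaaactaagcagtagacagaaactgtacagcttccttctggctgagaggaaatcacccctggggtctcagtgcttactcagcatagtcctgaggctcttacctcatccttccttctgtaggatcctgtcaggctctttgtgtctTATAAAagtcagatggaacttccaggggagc
Ccl9: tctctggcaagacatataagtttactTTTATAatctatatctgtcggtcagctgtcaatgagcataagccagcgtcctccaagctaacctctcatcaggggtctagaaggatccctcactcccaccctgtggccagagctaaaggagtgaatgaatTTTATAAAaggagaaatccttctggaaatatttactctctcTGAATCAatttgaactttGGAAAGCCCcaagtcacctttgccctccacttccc
The letters searched on both strands were GGNNTTTCC for NF-kB, TGANTCA for AP-1, TTGCNNAA for C/EBP, AANNGAAA for interferon regulatory factors and TATAAA for the TATA box. Of 32851 promoters in the table, 4.93% held the NF-kB letters, 6.75% the AP-1 letters, 9.56% the C/EBP letters, 21.3% the interferon factor letters and 12.4% the TATA box. The Ccl12 window held 1 match, a TATA box from 31 to 26 bases before the start. The Ccl3 window held 1 match, to the interferon factor letters from 219 to 212 bases before it. The Ccl9 window held an NF-kB match from 35 to 27 bases before the start on the other strand, an AP-1 match from 53 to 47 bases, and TATA box letters further out, in which 2 matches overlap. The Ccl6, Ccl17 and Ccl22 windows held none of the 5. A match is a description of letters, and no binding was measured in these data.

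Total counts, in mega-counts (M), were 19.74 to 22.43 M in CBPi gMDSC, 12.37 to 23.27 M in vehicle gMDSC, 19.49 to 26.64 M in CBPi mMDSC and 13.51 to 23.23 M in vehicle mMDSC. Markers were compared with the sort. Summed over 8 neutrophil markers, levels were 7073 to 13495 CPM in CBPi gMDSC and 8815 to 34967 CPM in vehicle gMDSC, against 203 to 286 CPM in CBPi mMDSC and 323 to 370 CPM in vehicle mMDSC. Ly6g itself, the gene behind the Ly6G gate, was low throughout, at 0.529 to 2.14 CPM in CBPi gMDSC and 0.438 to 9.20 CPM in vehicle gMDSC, where the lowest library was vehicle gMDSC 5. Ly6g was at 0 to 0.0392 CPM in CBPi mMDSC and at 0 to 0.404 CPM in vehicle mMDSC. Macrophage markers, which the F4/80- gate should deplete, summed to 16633 to 31794, 33812 to 76851, 19433 to 24315 and 22548 to 32254 CPM in CBPi gMDSC, vehicle gMDSC, CBPi mMDSC and vehicle mMDSC, with 11 of 12 markers at or above 1 CPM in each group and none at 0. RNA of macrophage markers was thus present in both gates, and within gMDSC its sum did not overlap between CBPi and vehicle. T, NK and B cell markers summed to 7.12 to 16.0, 26.8 to 66.3, 5.88 to 23.6 and 18.3 to 67.5 CPM in CBPi gMDSC, vehicle gMDSC, CBPi mMDSC and vehicle mMDSC. Of those 14 markers, Cd8a was at 0 in CBPi gMDSC, vehicle gMDSC and CBPi mMDSC and above 0 in vehicle mMDSC. Cd3d was the highest of the 14 in gMDSC, averaging 3.03 CPM under CBPi and 20.7 CPM under vehicle. Its log2 fold change was -2.73 for CBPi against vehicle in gMDSC (edgeR adjusted p = 0.00421). For gMDSC against mMDSC in vehicle it was 7.43 (edgeR adjusted p = 1.88e-05). Of 8 markers of this list tested there, 1 was higher and 0 lower in gMDSC (13.6% and 8.08% of all genes). The median log2 fold change of these 8 was -0.65, against -0.06 over all genes. Dendritic cell markers summed to 253 to 369, 475 to 675, 214 to 272 and 370 to 553 CPM, and only Xcr1 of 12 was at 0, in CBPi mMDSC. Most of the dendritic cell sum was Itgax, which averaged 276 of 320 CPM in CBPi gMDSC and 545 of 581 CPM in vehicle gMDSC. In mMDSC Itgax averaged 170 of 243 CPM under CBPi and 384 of 446 CPM under vehicle. The means of the neutrophil, macrophage, dendritic cell and T, NK and B cell sums were lower under CBPi in both cell types. This went together with the ligand differences described next, and the part of these markers in those differences was not tested. In bulk RNA, fewer cells of a type and less RNA per cell cannot be told apart.

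Levels are CPM, the counts of a gene scaled by library total and by TMM over the 20 libraries, and levels of different genes are set side by side only as CPM per kilobase (kb) of coding length. By mean level, Ccl4 was the highest member and Ccl3 the second in each of the 4 groups. Ccl4 averaged 10199 ± 2240 CPM per kb in CBPi gMDSC, 6670 ± 2900 in vehicle gMDSC, 5857 ± 1464 in CBPi mMDSC and 4894 ± 2711 in vehicle mMDSC (SD, n = 5 each). Ccl3, which like Ccl4 encodes a macrophage inflammatory protein, averaged 8382 ± 2599, 3800 ± 1310, 2333 ± 577 and 1493 ± 768 CPM per kb in these groups. The ranges of Ccl4 and Ccl3 overlapped in 3 groups and were apart in CBPi mMDSC. In vehicle mMDSC the range of Ccl3 also overlapped that of Ccl12, the next member, which averaged 1430 ± 482 CPM per kb. Below them stood Ccl6, Ccl12, Ccl5, Ccl2 and Ccl7, between 248 and 1430 CPM per kb on average, many of them with overlapping ranges. Ccl9 was the eighth in each group, at 117, 96.9, 585 and 409 CPM per kb in CBPi gMDSC, vehicle gMDSC, CBPi mMDSC and vehicle mMDSC. A gap separated Ccl9 from Ccl17 and Ccl22, which averaged at most 4.56 CPM per kb.

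**Figure D1:**
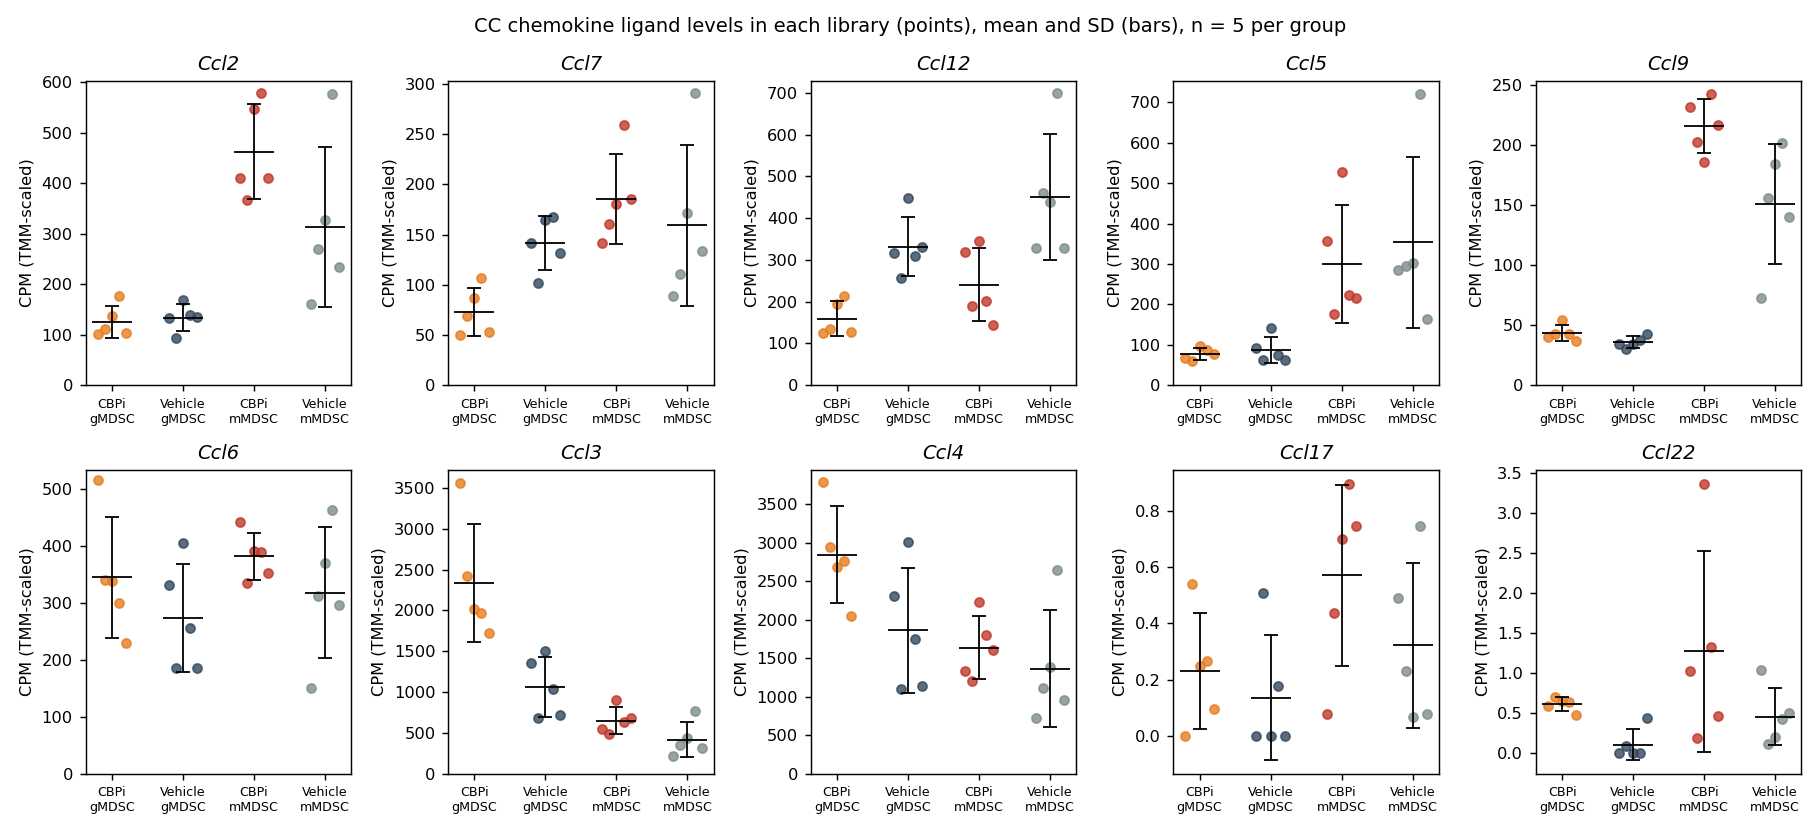
TMM-scaled CPM of each ligand (vertical axes, one panel per gene, linear) in CBPi gMDSC, vehicle gMDSC, CBPi mMDSC and vehicle mMDSC, with 1 point per library and bars for the mean and SD of 5 libraries. The CBPi gMDSC points of Ccl3 lie above all others, between 1728 and 3557 CPM, and the gMDSC points of Ccl9 lie below all its mMDSC points.

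Added up over the 10 genes, the ligands reached 20996 ± 4963 CPM per kb in CBPi gMDSC, 13491 ± 4871 in vehicle gMDSC, 13383 ± 2814 in CBPi mMDSC and 11657 ± 5689 in vehicle mMDSC (SD, n = 5 each), and these sums overlapped between CBPi and vehicle in both cell types. The share of Ccl4 in the sum was 48.7% in CBPi gMDSC, 48.4% in vehicle gMDSC, 43.5% in CBPi mMDSC and 41.1% in vehicle mMDSC. The share of Ccl3 was 39.5 ± 3.22%, 28.3 ± 1.22%, 17.4 ± 1.46% and 12.7 ± 0.887% in the same order. The share of Ccl12 was 2.52%, 8.28%, 5.70% and 12.9%. In both cell types the mean share of Ccl3 was higher under CBPi than under vehicle, and that of Ccl12 was lower.

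The first comparison asked what CBPi did to the ligands in gMDSC. Ccl3 rose, Ccl12 and Ccl7 fell, and the other 5 members tested did not pass the threshold. With edgeR's quasi-likelihood test and Benjamini-Hochberg adjustment over 11694 genes, 9.71% of all genes had an adjusted p under 0.05, 4.18% higher and 5.52% lower under CBPi. Of 8 members tested, 1 was higher and 2 lower, and their median log2 fold change was 0.13 against 0.00 over all genes. The labels do not say that the libraries of a group came from separate mice, so p-values refer only to the spread among these samples, which may partly be technical.

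Among the CCR2 ligands, Ccl12, a monocyte chemoattractant of mice, was at 124, 134, 194, 214 and 128 CPM in CBPi gMDSC 6 to 10, against 316, 256, 448, 308 and 330 CPM in vehicle gMDSC 1 to 5. The highest CBPi library was below the lowest vehicle library, as was the case for 7.23% of all genes tested (12.2% in either direction). The log2 fold change was -1.02 ± 0.20 (SE; adjusted p = 0.00811). Ccl7 (monocyte chemoattractant protein 3) was at 50.2, 68.6, 86.7, 107 and 52.7 CPM in CBPi gMDSC, against 142, 101, 165, 167 and 131 CPM in vehicle gMDSC. Only CBPi gMDSC 9 reached the vehicle range, at its low end. Ccl7 fell by 0.91 ± 0.22 on the log2 scale (adjusted p = 0.0226), and the call ended without CBPi gMDSC 6 (adjusted p = 0.055), 7 (0.0639) or 10 (0.0601) or vehicle gMDSC 4 (0.0528). Ccl2, the main attractant of CCR2-bearing monocytes, was at 100, 111, 137, 176 and 103 CPM in CBPi gMDSC, against 132, 94.1, 167, 140 and 134 CPM in vehicle gMDSC. The Ccl2 groups overlapped over most of their range, and the log2 fold change was -0.05 ± 0.19 (adjusted p = 0.907).

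Among the macrophage inflammatory proteins and RANTES, Ccl3 was at 3557, 2422, 2015, 1972 and 1728 CPM in CBPi gMDSC, against 1352, 683, 1501, 1041 and 724 CPM in vehicle gMDSC. All 5 CBPi libraries were above all 5 vehicle libraries, which held for 4.94% of all genes, and CBPi gMDSC 6 stood highest. Ccl3 rose by 1.19 ± 0.25 on the log2 scale (adjusted p = 0.0122). Its neighbour Ccl4 was at 3788, 2945, 2681, 2762 and 2051 CPM in CBPi gMDSC, against 2301, 1102, 3009, 1751 and 1141 CPM in vehicle gMDSC. The Ccl4 groups overlapped because of vehicle gMDSC 1 and 3, and the log2 fold change was 0.66 ± 0.27 (adjusted p = 0.139). Without vehicle gMDSC 3 it was 0.89 (adjusted p = 0.0278). Ccl5 (RANTES), a ligand of CCR1 and CCR3, was at 59.5 to 97.2 CPM with a median of 76.5 CPM in CBPi gMDSC, against 62.2 to 140 CPM with a median of 73.7 CPM in vehicle gMDSC, a difference that did not pass (adjusted p = 0.817).

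The CCR1 ligands of rodents, Ccl6 and Ccl9, also stayed below the threshold in gMDSC. Ccl6 was at 515, 339, 338, 300 and 229 CPM in CBPi gMDSC, against 332, 186, 405, 256 and 186 CPM in vehicle gMDSC, with overlapping groups (log2 fold change 0.38 ± 0.25, adjusted p = 0.368). Ccl9 was at 40.2, 42.5, 54.6, 42.5 and 36.6 CPM in CBPi gMDSC, against 34.4, 29.9, 34.1, 37.9 and 42.5 CPM in vehicle gMDSC, again overlapping (0.31 ± 0.17, adjusted p = 0.278). The CCR4 ligands were too low in gMDSC to pass the filter on counts. Ccl22 had 9, 13, 13, 12 and 10 counts in CBPi gMDSC, against 0, 1, 0, 0 and 10 counts in vehicle gMDSC, where only replicate 5 came near the CBPi libraries. In CPM the 2 groups were apart, at 0.481 to 0.701 CPM in CBPi gMDSC and 0 to 0.438 CPM in vehicle gMDSC, but these rest on a few counts and were not tested. Ccl17 had 0, 10, 5, 5 and 2 counts in CBPi gMDSC, against 0, 6, 0, 2 and 0 counts in vehicle gMDSC. A count of 0 allows up to 3 counts, or 0.131 to 0.3 CPM in these libraries, by counting error alone.

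In mMDSC, Ccl12 fell under CBPi and no other member passed the threshold. With the same test over 11912 genes, 8.56% of all genes were called, 3.02% higher and 5.54% lower under CBPi. All 10 members were tested, with 0 higher and 1 lower, a median log2 fold change of 0.38 against 0.01 over all genes. The CBPi and vehicle ranges overlapped for all 10, while 9.76% of all genes had groups that did not overlap, 4.2% with CBPi higher and 5.57% with CBPi lower.

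Ccl12 was at 318, 190, 346, 201 and 144 CPM in CBPi mMDSC 6 to 10, against 328, 459, 439, 699 and 327 CPM in vehicle mMDSC 1 to 5. Only CBPi mMDSC 8 reached into the vehicle range. The log2 fold change was -0.92 ± 0.26 (SE; adjusted p = 0.0454), close to the threshold. The call ended without CBPi mMDSC 7 (adjusted p = 0.1), 9 (0.104) or 10 (0.0973) or vehicle mMDSC 2 (0.0871), 3 (0.0818) or 4 (0.0784). Ccl2 was at 410, 366, 547, 578 and 411 CPM in CBPi mMDSC, against 160, 270, 327, 577 and 233 CPM in vehicle mMDSC. All CBPi libraries lay above 4 of the 5 vehicle libraries, and vehicle mMDSC 4 was level with the highest CBPi library (log2 fold change 0.55 ± 0.28, adjusted p = 0.271). Ccl7 was at 142, 161, 181, 260 and 186 CPM in CBPi mMDSC, against 88.7, 111, 172, 291 and 133 CPM in vehicle mMDSC (0.21 ± 0.28, adjusted p = 0.721).

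Ccl3 was at 551, 486, 907, 631 and 680 CPM in CBPi mMDSC, against 212, 346, 436, 772 and 317 CPM in vehicle mMDSC. As with Ccl2, only vehicle mMDSC 4 reached the CBPi range, and the log2 fold change was 0.63 ± 0.29 (adjusted p = 0.215). Vehicle mMDSC 4 was the highest vehicle mMDSC library for 8 of the 8 members above the lowest levels, and vehicle mMDSC 1 the lowest for 6 of them. Without vehicle mMDSC 4, Ccl2 was higher under CBPi by 0.90 (adjusted p = 0.0143) and Ccl3 by 0.99 (adjusted p = 0.0119). Ccl4 was at 1331, 1202, 2235, 1797 and 1607 CPM in CBPi mMDSC, against 727, 1110, 1386, 2649 and 956 CPM in vehicle mMDSC (0.25 ± 0.30, adjusted p = 0.688). The span of vehicle mMDSC covered that of CBPi mMDSC for Ccl4. Ccl5 was at 356, 175, 529, 223 and 216 CPM in CBPi mMDSC, against 285, 296, 302, 720 and 162 CPM in vehicle mMDSC (-0.25 ± 0.37, adjusted p = 0.755). Without vehicle mMDSC 4 the Ccl5 value was 0.19, the opposite sign.

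Ccl9 was at 232, 203, 186, 243 and 217 CPM in CBPi mMDSC, against 72.9, 156, 184, 202 and 140 CPM in vehicle mMDSC, overlapping at 186 to 202 CPM (0.51 ± 0.22, adjusted p = 0.179). Ccl6 was at 335 to 441 CPM with a median of 389 CPM in CBPi mMDSC, against 150 to 463 CPM with a median of 311 CPM in vehicle mMDSC (0.25 ± 0.22, adjusted p = 0.555). Ccl22 and Ccl17, which encode attractants of CCR4-bearing T cells, were rare in both groups. Ccl22 had 26, 5, 77, 37 and 15 counts in CBPi mMDSC, against 21, 3, 3, 8 and 13 counts in vehicle mMDSC (1.44 ± 0.78, adjusted p = 0.314). Ccl17 had 2, 12, 16, 25 and 24 counts in CBPi mMDSC, against 10, 6, 1, 14 and 2 counts in vehicle mMDSC (0.81 ± 0.77, adjusted p = 0.592). The CBPi and vehicle groups overlapped for both genes.

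**Figure D2:**
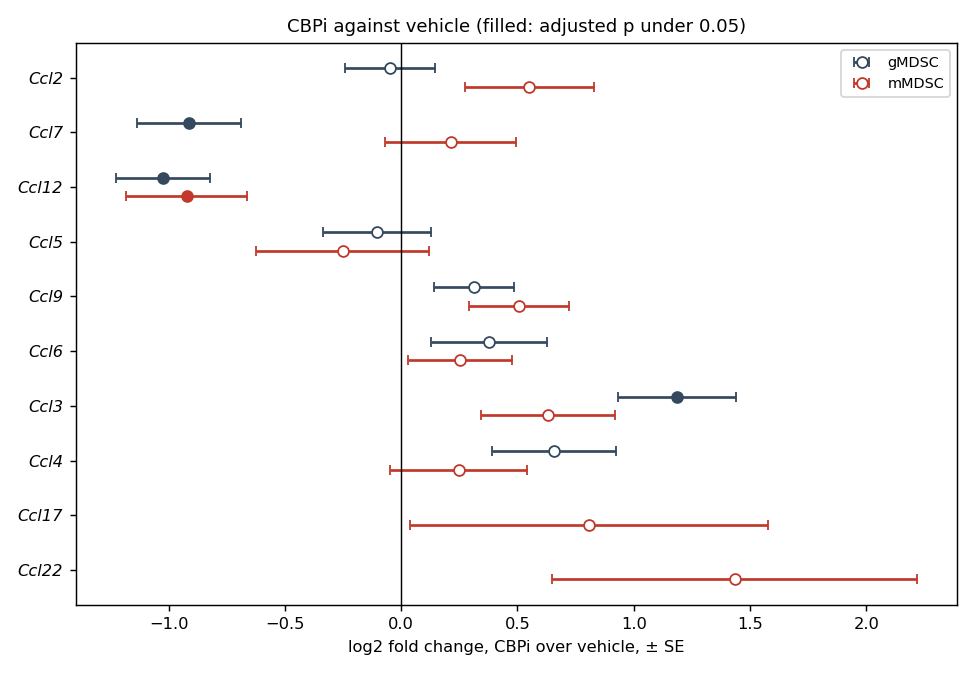
Log2 fold change of CBPi over vehicle (horizontal axis) with its SE for each ligand in gMDSC and in mMDSC, 5 libraries per group, filled where the adjusted p of edgeR's quasi-likelihood test was under 0.05. Ccl12 lies near -1 in both cell types, and Ccl7 lies at -0.91 in gMDSC and 0.21 in mMDSC.

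Whether CBPi acted differently on the 2 cell types was tested as an interaction over 20 libraries. The test called 92 of 12688 genes (0.725%), 0.497% with a higher and 0.229% with a lower response in gMDSC. Before adjustment, p was under 0.05 for 1454 genes. None of the members was called. For Ccl7 the gMDSC response minus the mMDSC response was -1.18 ± 0.38 (SE; edgeR adjusted p = 0.2), for Ccl2 -0.65 ± 0.36 (adjusted p = 0.521) and for Ccl3 0.50 ± 0.41 (adjusted p = 0.703). Without vehicle mMDSC 4 the Ccl7 difference was -1.45 (adjusted p = 0.0335). Ccl7 was called in gMDSC and not in mMDSC, but the difference between its 2 responses did not pass in this fit over all libraries.

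Ratios between genes of the same cluster were compared because each ratio is taken within 1 library and does not depend on its total. These ratio tests were not among the planned tests. Several of them set a ligand called above (Ccl12, Ccl7 or Ccl3) over a ligand that was not called (Ccl2 or Ccl4), so they partly restate those calls. After removing group means, the Pearson correlation of log2 CPM over 20 libraries ranged from 0.207 (Ccl5 and Ccl9) to 0.973 (Ccl3 and Ccl4) among the 8 members other than Ccl17 and Ccl22, which share their libraries and their normalization. Values within and across clusters overlapped: Ccl2 and Ccl7 reached 0.924 and Ccl9 and Ccl4 0.449, while Ccl12 and Ccl5, from different clusters, reached 0.849. Ratios of CPM per kb were tested between CBPi and vehicle with an exact two-sided permutation test over 252 assignments, whose smallest p is 0.00794, and adjusted over 10 ratio tests. Ccl12 over Ccl2 was 1.75, 1.72, 2.02, 1.72 and 1.76 in CBPi gMDSC, against 3.40, 3.86, 3.80, 3.13 and 3.50 in vehicle gMDSC. The same ratio was 1.10, 0.736, 0.899, 0.494 and 0.498 in CBPi mMDSC, against 2.91, 2.41, 1.90, 1.72 and 1.99 in vehicle mMDSC. In both cell types all CBPi libraries were below all vehicle libraries, vehicle mMDSC 4 included, and the exact permutation p was 0.00794 in each (adjusted p = 0.0132). Relative to Ccl2, Ccl12 RNA was thus lower under CBPi in all 10 CBPi libraries.

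Ccl3 over Ccl4 was 0.939, 0.823, 0.752, 0.714 and 0.842 in CBPi gMDSC, against 0.587, 0.620, 0.499, 0.595 and 0.635 in vehicle gMDSC. In mMDSC it was 0.414, 0.404, 0.406, 0.351 and 0.423 under CBPi, against 0.291, 0.312, 0.315, 0.291 and 0.331 under vehicle. The groups were again apart in both cell types, now with CBPi higher (exact permutation p = 0.00794 in each, adjusted p = 0.0132). Ccl7 over Ccl2 averaged 0.873 ± 0.0969 in CBPi gMDSC and 1.62 ± 0.134 in vehicle gMDSC, with no overlap (exact permutation p = 0.00794, adjusted p = 0.0132). In mMDSC it averaged 0.613 ± 0.0910 under CBPi and 0.780 ± 0.0951 under vehicle, with overlap (exact permutation p = 0.0317, adjusted p = 0.0454). Ccl12 over Ccl7 averaged 2.07 in CBPi gMDSC and 2.21 in vehicle gMDSC (exact permutation p = 0.476), and 1.29 in CBPi mMDSC and 2.85 in vehicle mMDSC, where the groups were apart (exact permutation p = 0.00794, adjusted p = 0.0132). Ccl9 over Ccl6 averaged 0.127 in CBPi gMDSC and 0.138 in vehicle gMDSC (exact permutation p = 0.794), and 0.541 in CBPi mMDSC and 0.456 in vehicle mMDSC (exact permutation p = 0.0397, adjusted p = 0.0496). The 2 mMDSC ratios with overlapping groups lost their call in 6 of 10 repeats that each left out 1 library, with unadjusted exact permutation p up to 0.0714 for Ccl7 over Ccl2 and 0.0873 for Ccl9 over Ccl6. A ratio shows unequal change of the 2 genes and not which of them moved.

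**Figure D3:**
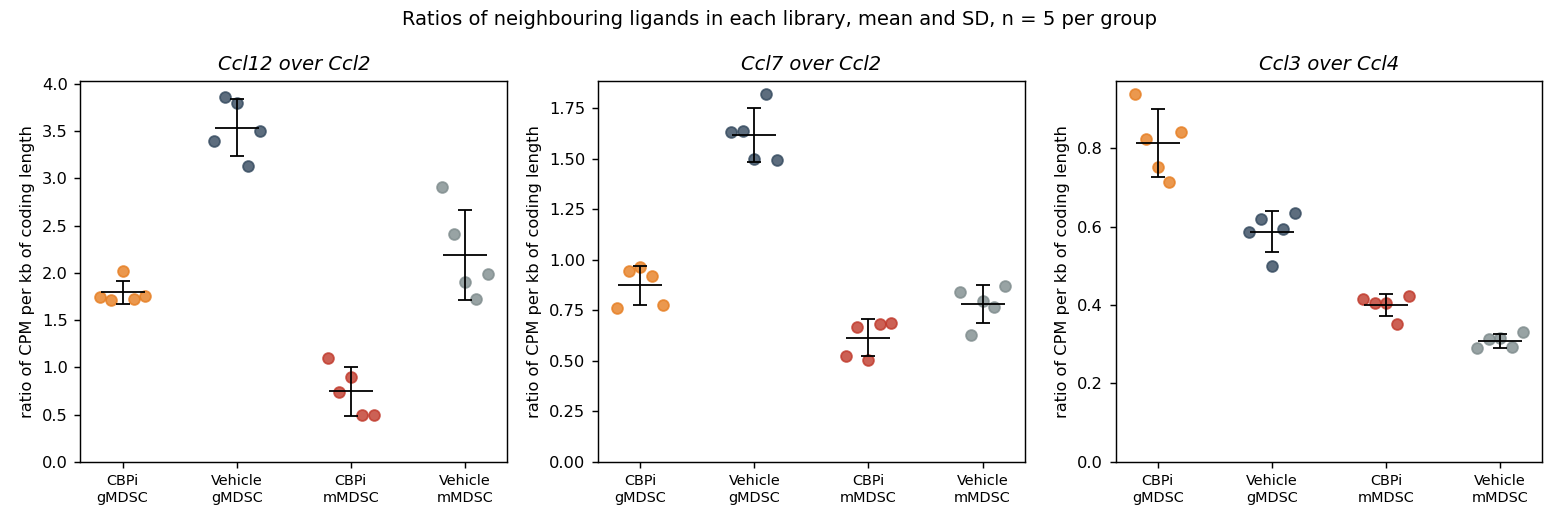
Ratio of CPM per kb of coding length (vertical axes) for Ccl12 over Ccl2, Ccl7 over Ccl2 and Ccl3 over Ccl4 in the 4 groups, with 1 point per library and bars for the mean and SD of 5. For Ccl12 over Ccl2 and Ccl3 over Ccl4 the CBPi and vehicle points do not overlap within a cell type, and for Ccl7 over Ccl2 they overlap in mMDSC.

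The cell types were then compared within each treatment. In vehicle mice, Ccl3 was higher and Ccl2, Ccl5 and Ccl9 were lower in gMDSC. EdgeR's test called 21.7% of 11576 genes, 13.6% higher and 8.08% lower in gMDSC, and 1 of 8 members tested was higher and 3 were lower, with a median log2 fold change of -0.32 against -0.06 over all genes. Ccl9, from the values above, was at 29.9 to 42.5 CPM in vehicle gMDSC, against 72.9 to 202 CPM in vehicle mMDSC (log2 fold change -2.06 ± 0.25, adjusted p = 6.37e-05). Ccl5 was at 62.2 to 140 CPM in vehicle gMDSC, against 162 to 720 CPM in vehicle mMDSC (-2.04 ± 0.37, adjusted p = 0.00156). These were the 2 members whose vehicle groups did not overlap, which held for 20.2% of all genes (8.89% lower in gMDSC). Ccl2 was lower in gMDSC, with a log2 fold change of -1.23 ± 0.30 (adjusted p = 0.0105) and vehicle gMDSC 3 just above the lowest mMDSC library. Ccl3 was higher in gMDSC by 1.35 ± 0.33 (adjusted p = 0.0114), with overlap through vehicle gMDSC 2 and 5 and vehicle mMDSC 4. Ccl4 (0.44, adjusted p = 0.443), Ccl7 (-0.17, adjusted p = 0.742), Ccl6 (-0.22, adjusted p = 0.665) and Ccl12 (-0.43, adjusted p = 0.21) did not pass.

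Under CBPi, Ccl3 and Ccl4 were higher and Ccl2, Ccl7, Ccl5 and Ccl9 were lower in gMDSC than in mMDSC. The test called 39.2% of 11895 genes, 20.1% higher and 19.1% lower in gMDSC, and of 9 members tested 2 were higher and 4 lower, with a median of -0.99 against -0.05 over all genes. Ccl3 was at 1728 to 3557 CPM in CBPi gMDSC, against 486 to 907 CPM in CBPi mMDSC (log2 fold change 1.90 ± 0.21, adjusted p = 1.44e-05). Ccl4 was at 2051 to 3788 CPM in CBPi gMDSC, against 1202 to 2235 CPM in CBPi mMDSC, with overlap (0.85 ± 0.18, adjusted p = 0.00273). The Ccl4 call ended when all 20 libraries shared 1 estimate of the spread (adjusted p = 0.0515). For the members that were lower in gMDSC, the log2 fold change was -1.83 ± 0.19 for Ccl2 (adjusted p = 6.64e-06), -1.29 ± 0.22 for Ccl7 (adjusted p = 0.000522), -1.89 ± 0.28 for Ccl5 (adjusted p = 0.000143) and -2.26 ± 0.14 for Ccl9 (adjusted p = 7.85e-08). Groups did not overlap for Ccl3, Ccl2, Ccl7, Ccl5 and Ccl9, which is 5 of 9 members against 29.9% of all genes. Ccl12 (-0.54, adjusted p = 0.097), Ccl6 (-0.10, adjusted p = 0.707) and Ccl22 (-0.99 ± 0.68, adjusted p = 0.275) did not pass. Without CBPi mMDSC 10, Ccl12 passed at -0.68 (adjusted p = 0.0358). The neutrophil markers given above were higher in gMDSC in both comparisons, and their part in the ligand differences was not tested.

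**Figure D4:**
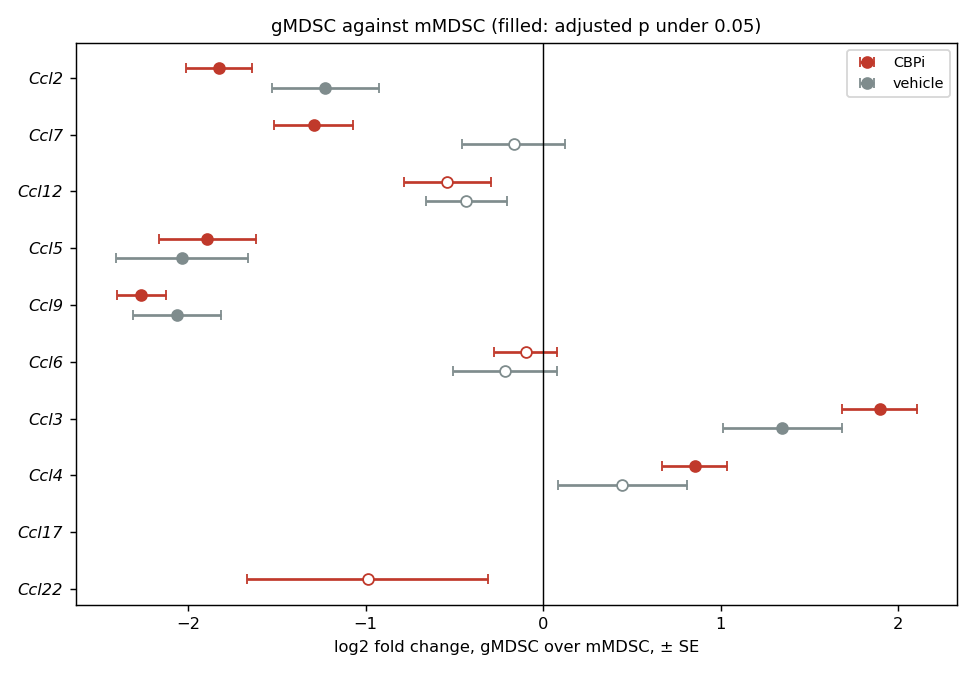
Log2 fold change of gMDSC over mMDSC (horizontal axis) with its SE for each ligand under CBPi and under vehicle, 5 libraries per group, filled where the adjusted p was under 0.05. Ccl3 and Ccl4 lie to the right of 0, and Ccl2, Ccl5 and Ccl9 lie near -1 to -2. Ccl17 passed the count filter in neither comparison and Ccl22 only under CBPi.

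The receptors of these ligands were counted from a list of 15 CC receptors and decoys. In gMDSC, 1 of 6 tested was higher and 2 were lower under CBPi, where 4.18% of all genes were higher and 5.52% lower. Ccr2, the receptor of Ccl2, Ccl7 and Ccl12, was at 32.2, 35.1, 42.1, 31.6 and 29.7 CPM in CBPi gMDSC, against 228, 240, 80.7, 231 and 310 CPM in vehicle gMDSC, and fell by 2.64 on the log2 scale (adjusted p = 0.000195). No library of one group reached the other, and vehicle gMDSC 3 was the lowest of its group. Ccr3, a receptor of Ccl5 and Ccl7 known from eosinophils, averaged 1.77 CPM in CBPi gMDSC and 9.64 CPM in vehicle gMDSC (-2.40, adjusted p = 0.0056), and the call ended in the fit of all 20 libraries (adjusted p = 0.0676). Markers of eosinophils, basophils and mast cells summed to 16.2 to 23.9 CPM in CBPi gMDSC and 53.3 to 86.9 CPM in vehicle gMDSC, nearly all from Siglecf, with Prg2 at 0 in both groups, Epx and Mcpt8 at 0 in CBPi gMDSC and Ms4a2 at 0 in both. Their part in the Ccr3 difference was not tested. Ccr7, which binds Ccl19 and Ccl21 and marks migrating dendritic cells, was at 12.1 to 29.5 CPM in CBPi gMDSC and 0 to 8.57 CPM in vehicle gMDSC (2.71, adjusted p = 0.0491), a call that ended in 7 of 10 repeats without 1 library (adjusted p up to 0.12). Ccr1 (-0.36, adjusted p = 0.282) and the non-signalling Ccrl2 (0.41, adjusted p = 0.25) did not pass in gMDSC.

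In mMDSC, 4 of 7 receptors tested were lower under CBPi and 0 higher, where 5.54% of all genes were lower and 3.02% higher. Ccr2 was at 173, 227, 206, 178 and 204 CPM in CBPi mMDSC, against 615, 712, 643, 516 and 778 CPM in vehicle mMDSC (-1.73, adjusted p = 7.84e-06). Ccr1, a receptor of Ccl3, Ccl5, Ccl6, Ccl7 and Ccl9, was at 261 to 306 CPM in CBPi mMDSC and 416 to 573 CPM in vehicle mMDSC (-0.86, adjusted p = 0.000324). The CBPi and vehicle groups did not overlap for either of these receptors. Ccr9 averaged 0.0437 CPM in CBPi mMDSC, where 4 libraries were at 0, and 1.05 CPM in vehicle mMDSC (adjusted p = 0.0175, and 0.0757 in the fit of all 20 libraries). Between cell types in vehicle mice, 3 of 9 receptors were higher and 3 lower in gMDSC (13.6% and 8.08% of all genes). Among them, Ccr1 (1.88), Ccrl2 (2.57) and Ccr3 (2.90) were higher in gMDSC, and Ccr2 (-1.56) lower, with edgeR adjusted p of at most 0.0128. Ccr7 was also lower in gMDSC (-2.64, edgeR adjusted p = 0.0324). Between cell types under CBPi, 2 of 6 receptors were higher and 3 lower in gMDSC (20.1% and 19.1% of all genes). There Ccr7 was lower (-0.71, edgeR adjusted p = 0.0396) and Ccr3 did not pass (1.39, adjusted p = 0.288). Ccrl2 reached 13510 CPM in CBPi gMDSC, 10539 in vehicle gMDSC, 2640 in CBPi mMDSC and 1784 in vehicle mMDSC on average.

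Of 11 other CC ligands of the mouse, only 4 had enough counts to be tested in gMDSC and 5 in mMDSC. In each CBPi comparison 2 of those tested passed, 1 higher and 1 lower, and they were the same 2. Of all genes, 9.71% passed in gMDSC and 8.56% in mMDSC. Ccl24 (eotaxin-2, chromosome 5), a ligand of CCR3, was at 11.8, 9.33, 14.9, 10.3 and 7.31 CPM in CBPi gMDSC, against 2.00, 0.676, 0.477, 2.56 and 1.75 CPM in vehicle gMDSC (log2 fold change 2.88 ± 0.47, adjusted p = 0.00277). In mMDSC it was at 121, 103, 156, 122 and 105 CPM under CBPi, against 12.2, 26.9, 29.3, 65.5 and 20.3 CPM under vehicle (1.96 ± 0.35, adjusted p = 0.00393). All CBPi libraries were above all vehicle libraries in both cell types. Ccl8, which lies in the first cluster beyond Ccl12 (GeneID 20307, chromosome 11, 82115185 to 82116799), averaged 89.0 CPM in CBPi gMDSC and 230 CPM in vehicle gMDSC (-1.32 ± 0.36, adjusted p = 0.035). In mMDSC Ccl8 averaged 101 CPM under CBPi and 202 CPM under vehicle (-1.01 ± 0.24, adjusted p = 0.0219). Leaving out 1 library ended the Ccl8 call in 7 of 10 repeats in gMDSC (adjusted p up to 0.0962) and in 3 of 10 in mMDSC (up to 0.0536), and the mMDSC call also ended in the fit of all 20 libraries (adjusted p = 0.0923).

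Regulators of chemokine genes were counted from 3 further lists. Of 28 transcription factors and inhibitors, 6 of 27 tested rose and 3 fell under CBPi in gMDSC, and 7 of 28 rose and 4 fell in mMDSC. Of all genes, 4.18% rose and 5.52% fell in gMDSC, and 3.02% rose and 5.54% fell in mMDSC. As examples chosen after their values were seen, the AP-1 subunit Jun averaged 4217 CPM in CBPi gMDSC and 1392 CPM in vehicle gMDSC (1.63 ± 0.29, edgeR adjusted p = 0.00449), and 1055 CPM in CBPi mMDSC and 532 CPM in vehicle mMDSC (0.98 ± 0.18, adjusted p = 0.00433). Tnfaip3, an NF-kB inhibitor, averaged 2435 CPM in CBPi gMDSC and 929 CPM in vehicle gMDSC (1.44 ± 0.27, adjusted p = 0.00562), and 558 CPM in CBPi mMDSC and 437 CPM in vehicle mMDSC (0.34 ± 0.25, adjusted p = 0.472). Nfkbia, another such inhibitor, averaged 11148 CPM in CBPi gMDSC and 7853 CPM in vehicle gMDSC (0.55 ± 0.30, adjusted p = 0.272, and 0.0372 without vehicle gMDSC 3), and 3505 CPM in CBPi mMDSC and 1813 CPM in vehicle mMDSC (0.94 ± 0.18, adjusted p = 0.00637). Bcl3, an IkB family member in the nucleus, fell in both, by 0.77 ± 0.16 in gMDSC (adjusted p = 0.0115) and by 0.75 ± 0.12 in mMDSC (adjusted p = 0.00196). Of 6 factors that act on the decay of chemokine mRNAs, 1 rose in gMDSC and 1 fell in mMDSC, and of 17 genes of receptor signalling and desensitisation, 0 rose and 2 fell in gMDSC and 0 rose and 1 fell in mMDSC.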

How the data were processed

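Counts per gene, deposited by the authors for each library with RPKM values and a gene width, were analysed for the 10 ligands. Per the submitters' processing notes, reads were aligned with GSNAP to GRCm38. How reads were counted, and whether by strand, is not given in the sources used here. The deposited RPKM values served only as a check of totals: counts summed to 50.2% to 62.4% of the total implied by RPKM. The width column deposited by the authors matched GENCODE coding bases plus 3 for all 10 ligands. Of 23090 IDs, 21647 matched a RefSeq symbol.

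Counts were tested with edgeR 4.0.16 (quasi-likelihood test, TMM, filterByExpr with minimum count 10 and minimum total 15) in R 4.3.3, with Benjamini-Hochberg adjustment over all genes passing the filter and a threshold of 0.05. Each pairwise fit used 10 libraries and the interaction 20. The SE is the size of the log2 fold change divided by the square root of F. The text names all 10 ligands and receptors that passed in any comparison with a mean of 1 CPM in a group. Other CC ligands above 1 CPM are described where they passed. Ccl1 and Ccl25, also above 1 CPM on average in at least 1 group, were called in no comparison. The members and lists were chosen with earlier results of these data known. Alternatives were DESeq2 1.42.0 size factors, its Wald test, limma 3.58.1, no count filter, all 20 libraries in 1 fit, a replicate block and leaving out each library. The code was tested on simulated data. Of simulated 2-fold changes it recovered 20.9% for CBPi in gMDSC and 50.7% for CBPi in mMDSC. Between cell types it recovered 14.9% in vehicle and 44.8% under CBPi, and in the interaction 8.96%. A ligand that was not called is therefore not shown to be unchanged. No library was left out of the main tests. A receptor and a marker gene of the lists are not reported here.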

Additional observations from a re-analysis of the deposited data

Results flagged for a closer look

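Dixon's criterion for a single value far from its group (gap over range above 0.71 for 5 values) was applied to 40 sets of 5 libraries, where chance flags about 1 in 20, and it marked 2. Vehicle mMDSC 4 held 719.563 CPM of Ccl5, while its 4 fellow libraries spanned 162 to 302 CPM (gap over range 0.749). Vehicle gMDSC 5 held 0.438 CPM of Ccl22, from 10 counts, while the rest of vehicle gMDSC spanned 0 to 0.0845 CPM (gap over range 0.807), and this was also the vehicle gMDSC library with the lowest Ly6g.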

How the results depend on the processing

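Of 1411 single-gene or ratio alternatives, 1322 kept their direction and side of the threshold, 45 lost and 11 gained a call, and 33 reversed. The CBPi counts of called ligands were the same under the other size factors, no filter, DESeq2, limma and the fit of all 20 libraries. Over all genes, DESeq2 called 866 higher and 1060 lower in gMDSC (489 and 646 in edgeR), 678 higher in mMDSC (360 in edgeR), and 184 higher and 93 lower in the interaction (63 and 29 in edgeR). All 20 libraries in 1 fit gave 872 higher and 1310 lower in gMDSC, 165 higher in mMDSC and 1519 lower in gMDSC against mMDSC in vehicle (935 in edgeR), and under CBPi it called 1 ligand higher rather than 2. The labels share replicate numbers between cell types, but same-numbered libraries did not deviate together (correlations of -0.0308 to 0.168), so the block is given here only. The replicate block left 33 higher and 19 lower genes in the interaction, called 1 ligand lower there (Ccl7, -1.31, adjusted p = 0.0475) and turned Ccl17 to 0.31. Leaving out 1 library gave 229 to 658 higher and 358 to 736 lower genes in gMDSC, with 1 to 2 ligands higher and 1 to 2 lower, and 221 to 448 higher genes in mMDSC, with 0 to 2 ligands higher and 0 to 1 lower. It gave 23 to 85 higher and 10 to 32 lower genes in the interaction, with 0 to 1 ligands lower, and 676 to 1521 lower genes in gMDSC against mMDSC in vehicle. Values that changed sign without 1 library, none of them called, ranged from -0.20 to 0.039 for Ccl2 and from -0.20 to 0.14 for Ccl5 in gMDSC, from -0.55 to 0.19 for Ccl5 in mMDSC, from -0.33 to 0.18 for Ccl7 between cell types in vehicle, from -0.28 to 0.016 for Ccl6 between cell types under CBPi, and from -0.26 to 0.10 for log2 Ccl9 over Ccl6 in gMDSC. In the interaction they ranged from -0.31 to 0.092 for Ccl12, from -0.61 to 1.53 for Ccl17, from -0.34 to 0.0086 for Ccl9, from -0.28 to 0.48 for Ccl5 and from -0.12 to 0.33 for Ccl6. The cause of these changes was not tested. Ccl3 and Ccl12 stayed called in gMDSC without any 1 library (adjusted p up to 0.0341 and 0.03), including without vehicle gMDSC 5. Ccl17 and Ccl22 rest on few reads, with at most 25 and 77 counts in a library.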

Other observations

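For each ligand above 1 CPM, the 2 genes outside the list whose log2 CPM (prior count 2) ran most alike over the 20 libraries were looked up by Pearson correlation, as a description of libraries that share groups, depth and normalization. Ccl3 was most like Il15 (r = 0.973) and Tnfaip6 (0.965). Ccl4 was most like Ostf1 (0.905) and GeneID 102642913 (0.9). Ccl12 was most like GeneID 102641905 (1), the entry with identical counts, and Aif1 (0.952), a marker of macrophages and microglia. Ccl2 was most like Trim30d (0.923) and Gstp1 (0.921), and Ccl7 like Atraid (0.847) and Mdh1 (0.843). Ccl5 was most like Eif4e3 (0.972) and Ddt (0.964), Ccl9 like Phf11d (0.98) and Lrpap1 (0.967), and Ccl6 like Wfdc17 (0.902) and GeneID 102642186 (0.902).

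The remaining marker lists were also summed. Monocyte markers were at 5499 to 6472 CPM in CBPi gMDSC (mean 6006) and 4306 to 6587 in vehicle gMDSC (5775). In mMDSC they were at 5212 to 7224 CPM under CBPi (6378) and 6425 to 7654 under vehicle (6887). The mean of the monocyte sum was thus not lower under CBPi in gMDSC. Nr4a1 was its largest part there, averaging 3530 CPM under CBPi and 2400 CPM under vehicle. Of 8 monocyte markers tested in gMDSC, 2 were higher and 4 lower under CBPi (4.18% and 5.52% of all genes). The median log2 fold change of these 8 was -0.45, against 0.00 over all genes. Genes of the sort gate were at 3535 to 4563 CPM in CBPi gMDSC and 2667 to 4609 in vehicle gMDSC. In mMDSC they were at 2695 to 3054 CPM under CBPi and 4147 to 4562 under vehicle. The sum mixes genes of markers the gate kept with genes of markers it excluded, so it cannot test the sort. Ly6c1 and Ly6c2, behind the Ly6C gate, were called lower in gMDSC than in mMDSC. Their log2 fold changes were -4.25 and -4.23 in vehicle, and -4.35 and -4.40 under CBPi. Both were also called lower under CBPi (-1.37 and -1.41 in gMDSC, -1.27 and -1.24 in mMDSC). Adgre1, which the gate should deplete, averaged 807 CPM in CBPi gMDSC and 1040 CPM in vehicle gMDSC. Stromal and endothelial markers were at 158 to 428 CPM in CBPi gMDSC, 149 to 509 in vehicle gMDSC, 163 to 384 in CBPi mMDSC and 221 to 547 in vehicle mMDSC. Epithelial markers were at 6.25 to 11.6, 23.7 to 55.3, 3.80 to 11.6 and 5.22 to 14.1 CPM in the same order, with Krt18 the highest of them in vehicle gMDSC. In vehicle gMDSC the library with the highest level was replicate 3 for 6 of 8 ligands, and the lowest was replicate 2 for 6 of 8.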
